A study of Mus musculus with 6 samples.

Results

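Islets of mice in which Cre under Ins1 deletes Trsp, the gene of the selenocysteine transfer RNA (Trsp-Ins1KO), were compared with islets of floxed mice (TrspFF). The comparison rests on 4 of the 6 arrays of the series, 2 per group, taken by their sample titles, and 18258 genes could be tested on them. Every animal was a 16-week-old male on the ICR background per the labels, and all carried 2 floxed Trsp alleles. The genotype was TrspFlox/Flox for TrspFF and TrspFlox/Flox::Ins1-Cre for Trsp-Ins1KO, and the other 2 arrays held TrspFlox/Flox::RIP-Cre islets (Trsp-RIPKO), in which a rat insulin promoter drives Cre. Ins1 is an insulin gene of beta cells, so that by design the alpha, delta and other cells of these islets should keep Trsp, which was not measured. Mice that carry Ins1-Cre without floxed Trsp were not analysed here. The array annotation names 0 probes for Trsp, so the deletion itself could not be read from these data.

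Selenocysteine is inserted at UGA codons by a dedicated transfer RNA, which Trsp encodes, together with a set of proteins that synthesise the amino acid and bring it to the ribosome. Selenoproteins include glutathione peroxidases and thioredoxin reductases, which reduce peroxides and disulfides, and several proteins of the endoplasmic reticulum. Beta cells are known for low levels of catalase and other peroxide-removing enzymes. NRF2 is the transcription factor that cells use against electrophiles and oxidants, and ATF4 is the one that is translated when eIF2alpha kinases sense amino acid shortage, misfolded protein or mitochondrial stress.

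The genes that ATF4 is known to induce had the largest share of rises of any list with 10 or more tested members, and 4 of their promoters are shown because each holds an element of the ATF4 type, TGATGNAA, on one strand or the other. The sequences are the 250 bases before the RefSeq start on GRCm38.p6, read along the gene, with the element in capitals. They are chr7:45615491-45615740 on the minus strand for Fgf21, chr7:126625471-126625720 on the minus strand for Nupr1, chr2:119350992-119351241 on the plus strand for Chac1 and chr19:27216770-27217019 on the plus strand for Vldlr.
Fgf21: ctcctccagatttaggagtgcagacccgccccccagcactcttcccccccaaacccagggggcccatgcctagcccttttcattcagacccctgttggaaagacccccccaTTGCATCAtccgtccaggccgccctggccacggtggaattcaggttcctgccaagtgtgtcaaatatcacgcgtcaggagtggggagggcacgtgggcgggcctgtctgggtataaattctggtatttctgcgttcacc
Nupr1: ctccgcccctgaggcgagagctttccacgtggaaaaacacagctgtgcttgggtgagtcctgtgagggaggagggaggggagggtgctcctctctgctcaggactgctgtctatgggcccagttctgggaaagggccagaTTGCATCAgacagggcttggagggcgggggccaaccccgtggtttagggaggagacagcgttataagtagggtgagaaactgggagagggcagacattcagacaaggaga
Chac1: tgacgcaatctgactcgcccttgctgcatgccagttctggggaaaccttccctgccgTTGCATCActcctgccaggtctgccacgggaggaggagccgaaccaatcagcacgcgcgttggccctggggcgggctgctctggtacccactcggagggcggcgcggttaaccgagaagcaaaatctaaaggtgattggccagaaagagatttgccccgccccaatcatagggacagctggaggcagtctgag
Vldlr: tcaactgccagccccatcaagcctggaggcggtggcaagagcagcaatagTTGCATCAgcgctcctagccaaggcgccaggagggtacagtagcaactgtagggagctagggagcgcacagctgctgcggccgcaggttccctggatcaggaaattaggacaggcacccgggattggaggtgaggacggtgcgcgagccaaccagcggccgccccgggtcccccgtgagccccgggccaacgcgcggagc
The element began 139, 110, 193 and 200 bases before the start in these promoters. Of the 32851 promoters in the table, 3.5% held it, and of the 10347 tested genes with a promoter there, 2.6% did. It stood in 6 of the 29 tested ATF4-list genes with a promoter and in 6 of the 26 of these that rose, the others being Asns and Herpud1. The list was made of known ATF4 targets, so this count is no test of ATF4. The antioxidant response element searched as TGACNNNGC on both strands stood in 13.8% of the promoters of tested genes. It stood in 7 of the 33 tested NRF2-list genes with a promoter, and in 0 of the 15 of these that rose. A match describes these letters and shows no binding, and a missing match within 250 bases shows no lack of it.

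Levels are log2 values of the processed intensity over each array's 75th percentile, and a difference is the mean of Trsp-Ins1KO minus the mean of TrspFF, each over n = 2 arrays, with the standard error (SE) of the limma fit. A gene was called, and is said to have risen or fallen, at an adjusted p under 0.05. The 75th percentile lay at intensities of 218.1 to 247.2 in TrspFF and 110.7 to 121.9 in Trsp-Ins1KO, and 51.4% to 52.2% of spots in Trsp-Ins1KO were well above background against 57.5% to 57.9% in TrspFF. The 7 spike-in controls detected on every array stood 2.35 and 2.58 above the 75th percentile in TrspFF and 3.79 and 3.86 above it in Trsp-Ins1KO. Scaled on these controls, 137 genes rose and 17484 fell, with a median of -1.38 over all genes, so every direction given here is relative to the bulk of transcripts on the same array. All 4 arrays lay on slide 1. The labels do not state whether a group's arrays hold different animals, and p-values here therefore measure the spread between these hybridised samples alone, part of which may be technical.

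The names of both groups are in conflict between the deposited sources. Over 19486 probes, the columns named TrspFF in the authors' deposited table matched the scanner values of Trsp-Ins1KO (r = 1.0) and those named Trsp-Ins1KO matched TrspFF, while both Trsp-RIPKO columns matched their own arrays. The groups here are those of the scanner files, and under the table's names every sign turns. Trsp-RIPKO, the name on which the sources are at one, gives side-by-side values: Selenoh stood at 0.48 and 0.36 there, at 0.34 and 0.29 in Trsp-Ins1KO, and at 1.23 and 1.26 in TrspFF. Not every selenoprotein went that way: Txnrd1 stood at 2.53 and 2.44 in Trsp-RIPKO, 3.16 and 3.11 in Trsp-Ins1KO, and 2.43 and 2.60 in TrspFF. Xist, the RNA that coats the silenced X chromosome of female cells, was well above background on the TrspFF arrays (-0.56 and -0.32) and on those of Trsp-RIPKO (1.05 and 1.34) but not on the Trsp-Ins1KO arrays (-5.79 and -5.60), although every sample is labelled male. The Y-linked Ddx3y was well above background on all 6 arrays, at 0.96 and 0.78 in TrspFF and 0.75 and 0.51 in Trsp-Ins1KO (difference -0.24, adjusted p = 0.133). In Trsp-RIPKO, where Xist was highest, Ddx3y was lowest, at -0.53 and -0.44 (Trsp-RIPKO minus TrspFF -1.36, adjusted p = 0.00395 in the same limma fit).

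Transcripts across the whole range shifted between the groups. Of 18258 genes, 4377 rose (24%) and 4437 fell (24.3%), together 48.3%, and the arrays of the groups did not overlap for 77.9% of all genes. Each list count below has to be read beside these shares of 24% and 24.3%. Most of these shifts were small: 715 genes rose at least 2-fold (3.92%) and 563 fell at least 2-fold (3.08%), while 83 rose and 103 fell at least 4-fold. The difference between the arrays of a group had an SD of 0.147 in TrspFF and 0.216 in Trsp-Ins1KO over 16150 genes, against 0.482 to 0.554 between arrays of different groups. Without TrspFF 1, 2122 genes rose and 2031 fell, and without TrspFF 2 the counts were 2464 and 2179. In whole islets, fewer cells of a type and less RNA per cell cannot be told apart.

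**Figure D1:**
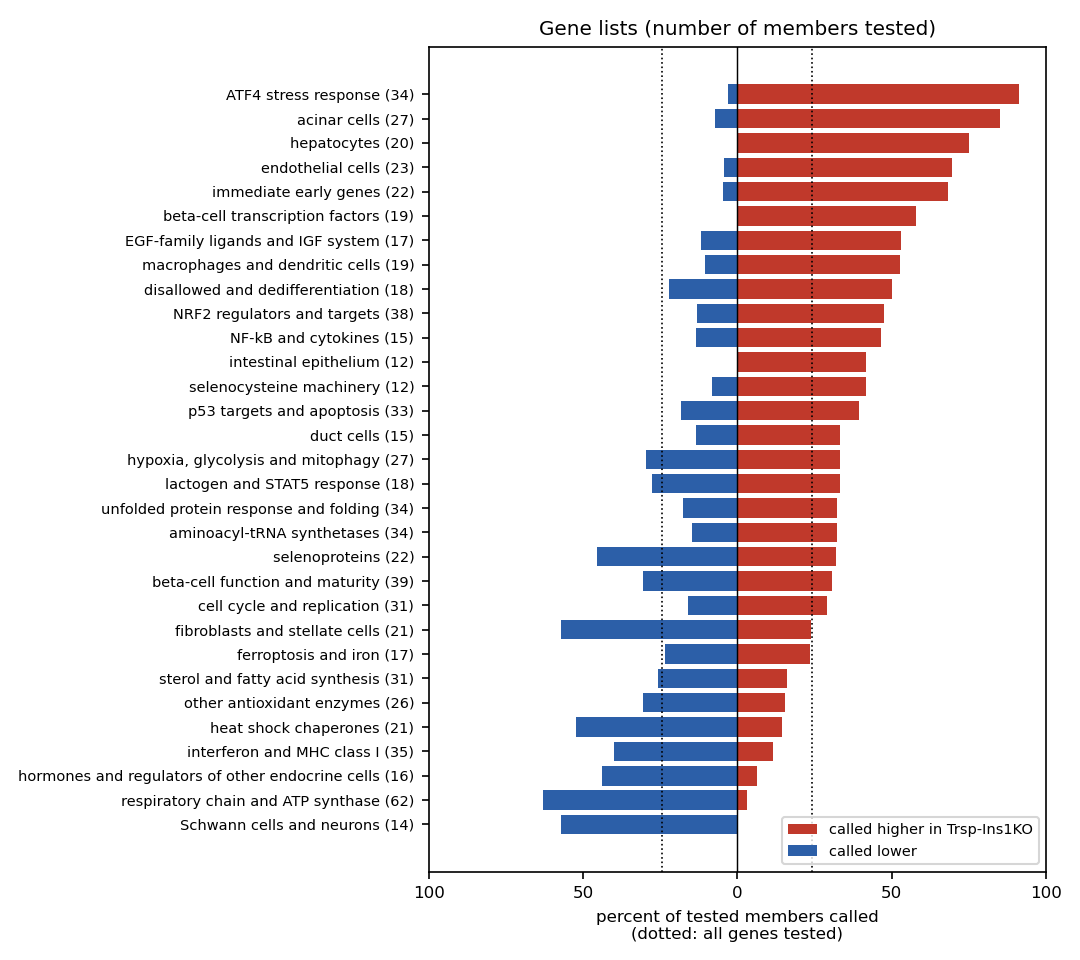
Percent of the tested members of each gene list that rose (red, right) or fell (blue, left) in Trsp-Ins1KO against TrspFF, for lists with 10 or more tested members, whose number stands in brackets. Dotted lines mark the 24% and 24.3% of all genes tested; the ATF4 list reaches farthest to the right and the lists of the respiratory chain, fibroblasts and nerve cells reach farthest to the left.

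Among the selenoproteins, 10 of the 22 tested transcripts fell and 7 rose, with a median of -0.22 beside -0.02 over all genes. The peroxide-reducing enzymes moved in opposite directions. Gpx1, the cytosolic glutathione peroxidase, stood at 3.59 and 3.54 in TrspFF and at 2.48 and 2.34 in Trsp-Ins1KO (difference -1.15, SE 0.107, adjusted p = 0.00189). Gpx4, which reduces lipid hydroperoxides in membranes, stood at 4.38 and 4.30 against 3.52 and 3.39 (-0.89, SE 0.0781, adjusted p = 0.00171). Both Trsp-Ins1KO arrays lay below both TrspFF arrays for each of these genes, though the groups did not overlap for 77.9% of all genes. Gpx2, the glutathione peroxidase best known from gut epithelium, stood at 1.53 and 1.46 in TrspFF and at 3.51 and 3.50 in Trsp-Ins1KO (difference 2.01, SE 0.0666, adjusted p = 0.000252), the largest rise of the family. Gpx3, the secreted plasma form, did not pass the test (-0.23, adjusted p = 0.0988), although it did with the normexp background correction, the replicate block and a trended, robust variance. The cytosolic thioredoxin reductase Txnrd1 rose by 0.62 (SE 0.0862, adjusted p = 0.0045), from 2.43 and 2.60 to 3.16 and 3.11. Its mitochondrial relative Txnrd2 rose by 0.24 and Txnrd3, of testis, fell by 0.44 (adjusted p = 0.0327 and 0.0371), a direction that the normexp background correction turned to 0.38 for Txnrd3.

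The selenoproteins of the endoplasmic reticulum mostly fell. Selenot, a thioredoxin-like protein of that membrane, went from 3.83 and 3.75 to 2.44 and 2.50 (-1.32, SE 0.124, adjusted p = 0.00191), the largest fall of the family, and its other probe gave -0.50. Selenof, which binds a glycoprotein folding sensor, fell by 0.48 (adjusted p = 0.00534), Selenok by 0.42 (other probe -0.01) and Selenom by 0.23, and Selenoi, an enzyme of phospholipid synthesis, fell by 0.45. A fall of Selenos (-0.11, adjusted p = 0.338) or a rise of Selenon (0.11, adjusted p = 0.241) was not called. Selenop, the secreted carrier of selenium, went from 5.89 and 5.91 to 4.99 and 4.92 (-0.95, SE 0.0711, adjusted p = 0.00127), and the nuclear Selenoh fell by 0.93 (adjusted p = 0.00144). Msrb1, which repairs oxidised methionine, rose by 0.29, Selenov by 0.33 and Dio1, the deiodinase, by 0.26, all close to the threshold (adjusted p = 0.0407, 0.0498 and 0.0445). The other probes for Dio1 gave larger rises, 0.85 and 0.86 (adjusted p = 0.0195 and 0.00276). Selenow (-0.20, adjusted p = 0.101) and Selenoo (-0.03, adjusted p = 0.785) were not called.

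The count of rises was the less stable one. Without TrspFF 1 or without TrspFF 2 it was 2 of 22 and the count of falls 6, without Trsp-Ins1KO 1 the count of rises was 3, and with median scaling it was 3. The calls on Selenoi (adjusted p = 0.0602 and 0.0574) and Selenok (0.059 and 0.0559) were lost without TrspFF 1 and without TrspFF 2, that on Selenok also with the mean over its probes (-0.21, adjusted p = 0.059), and those on Txnrd2, Txnrd3, Msrb1, Selenov, Selenom and Dio1 were lost there and in 1 or more other alternatives (adjusted p up to 0.207 without a single array). Gpx2 and Txnrd1 rose, and Selenot, Gpx1, Selenop, Selenoh, Gpx4 and Selenof fell, in every alternative run on single genes. Set directly against Trsp-RIPKO, which lies on another slide, Gpx2 was higher by 1.12 (adjusted p = 0.000868) and Txnrd1 by 0.65 (adjusted p = 0.00485) in Trsp-Ins1KO, and Selenop was lower by a difference of -0.61 (adjusted p = 0.00352). For Gpx4 and Selenoh those differences were -0.09 and -0.10 (adjusted p = 0.379 and 0.315).

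**Figure D2:**
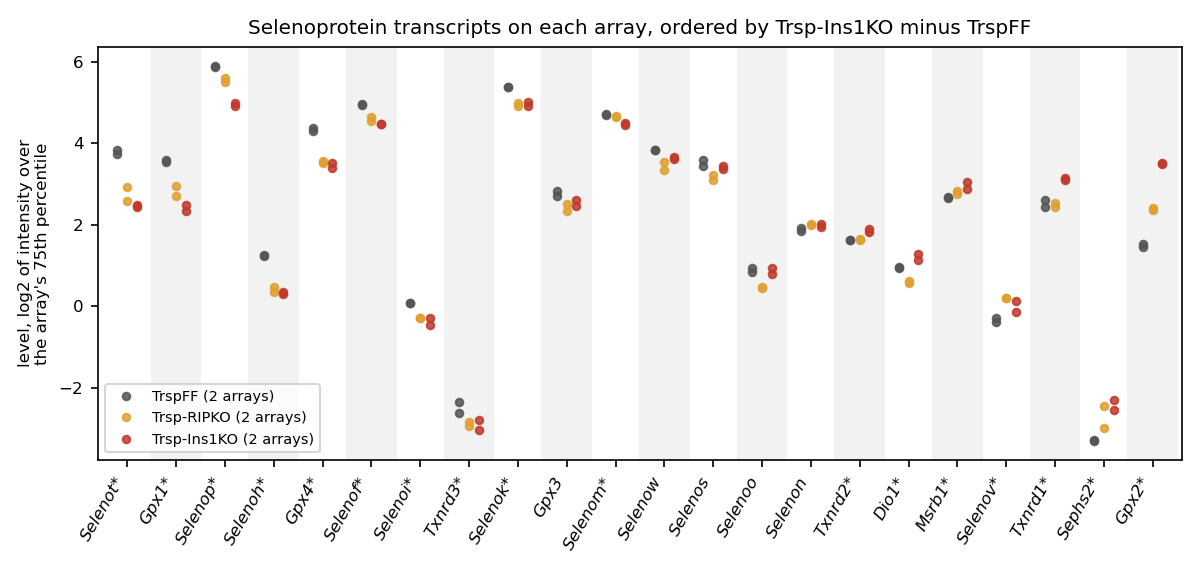
Level of each of the 22 selenoprotein transcripts on every array (vertical axis, log2 of intensity over the array's 75th percentile), grey for TrspFF, yellow for Trsp-RIPKO and red for Trsp-Ins1KO, 2 points each; a star marks an adjusted p under 0.05 for Trsp-Ins1KO against TrspFF. From left to right the difference runs from -1.32 for Selenot to 2.01 for Gpx2; levels of different probes are not comparable with each other.

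Of 12 tested genes that make and insert selenocysteine or bring selenium to the cell, 5 rose and 1 fell. Scly, the lyase that recovers selenium from selenocysteine, stood at 2.75 and 2.69 in TrspFF and at 3.52 and 3.35 in Trsp-Ins1KO (0.72, SE 0.0836, adjusted p = 0.00292). Lrp8, a receptor that takes up Selenop, rose by 0.68, Sars, which charges the transfer RNA with serine, by 0.57, Eefsec, its elongation factor, by 0.54, and Pstk, the kinase that acts on the charged serine, by 0.44. Sephs2, which makes the selenium donor and is itself a selenoprotein, rose by 0.87 from -3.29 and -3.31 to -2.30 and -2.56 (SE 0.193, adjusted p = 0.0168). That call was lost without TrspFF 1 or TrspFF 2 (adjusted p = 0.0753 in each) and without Trsp-Ins1KO 1 (0.0619). The ribosomal protein Rpl30, which also binds the selenocysteine insertion element, fell by 0.44, and the SECIS-binding Secisbp2 (0.12, adjusted p = 0.324) and Sepsecs, the enzyme of the last synthetic step (-0.11, adjusted p = 0.526), were not called.

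Genes of the NRF2 program were divided. Of 38 tested, 18 rose and 5 fell, with a median of 0.21, and the rises included glutathione transferases of the Gstm and Gstp classes, which conjugate electrophiles. Gstm1 stood at 1.08 and 1.04 in TrspFF and at 2.94 and 2.91 in Trsp-Ins1KO (1.86, SE 0.0645, adjusted p = 0.000252). Gstm2 and Gstp2 each rose by 1.81, Gstm3 by 1.76 and Gstp1 by 1.41. Both groups were far apart for each of these genes, whose close sequence within a class leaves cross-hybridisation between members untested. Hmox1, the heme oxygenase, stood at -1.20 and -1.39 against 1.33 and 1.15 (2.54, SE 0.105, adjusted p = 0.000341), but its other probe differed by 0.14 (adjusted p = 0.639). Ephx1, an epoxide hydrolase, rose by 0.99 (other probe 0.29), the autophagy receptor Sqstm1 by 0.95, Osgin1 by 0.93, the malic enzyme Me1 by 0.72 and glutathione reductase Gsr by 0.68 (other probe 0.35).

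The gene of NRF2 itself fell, and several classic targets were not called. Nfe2l2, which encodes NRF2, fell by 0.52 from 1.21 and 1.23 to 0.67 and 0.72 (SE 0.0648, adjusted p = 0.00342). Keap1, its inhibitor, rose by 0.45 from 2.23 and 2.21 to 2.62 and 2.72 (adjusted p = 0.00606). Nqo1, the quinone reductase, was at -1.86 and -1.99 against -2.16 and -2.27 and not called (-0.29, adjusted p = 0.111), nor were Srxn1 (0.04, adjusted p = 0.678) and Gclm (0.13, adjusted p = 0.279). Without TrspFF 1 or TrspFF 2 the number of falls in the list was 1, and without Trsp-Ins1KO 1 and Trsp-Ins1KO 2 it was 2 and 3.

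Other antioxidant genes held large changes in both directions. Of 26 tested, 4 rose and 8 fell, with a median of -0.16, while with the normexp correction 6 rose and 16 fell (median -0.33). Cat, catalase, stood at 3.81 and 3.75 in TrspFF and at 5.03 and 5.30 in Trsp-Ins1KO (1.39, SE 0.111, adjusted p = 0.00145). Sod3, the extracellular superoxide dismutase, rose by 1.25 (adjusted p = 0.000779), while cytosolic Sod1 stood at 6.31 and 6.18 against 6.28 and 6.22 (0.01, adjusted p = 0.959). The metal-binding metallothioneins moved the other way: Mt1 went from 7.50 and 7.49 to 6.34 and 6.17 (-1.24, adjusted p = 0.00104) and Mt2 from 6.19 and 6.20 to 4.83 and 4.79 (-1.38, adjusted p = 0.000421). Peroxiredoxins Prdx4 and Prdx2 fell by 0.36 and 0.26, and Prdx1, Prdx3, Prdx5 and Prdx6 were not called. Without TrspFF 1 or TrspFF 2 the list had 3 falls, and without TrspFF 2 it had 2 rises. In the list of ferroptosis and iron genes, 4 of 17 rose and 4 fell, close to the 24% and 24.3% of all genes. Trf, transferrin, rose by 1.80 and Slc3a2, the heavy chain of the cystine carrier, by 0.71. Ncoa4, which delivers ferritin for degradation, fell by 0.49 and Acsl4, which supplies oxidisable lipids, by 0.44. These counts were 2 and 1 without TrspFF 1 and again without TrspFF 2, where the call on Acsl4 was lost (adjusted p = 0.0594 and 0.0521), and 2 rose with median scaling.

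The ATF4 list rose nearly as a whole: 31 of 34 tested members rose and 1 fell, with a median of 0.89 beside -0.02 over all genes. Slc38a1, a carrier of glutamine and other neutral amino acids, had the largest difference, from -4.37 and -4.07 to 2.62 and 2.59 (6.82, SE 0.153, adjusted p = 0.000186). It was above background on 1 of the 2 TrspFF arrays, and its other probes gave 3.79 and 6.17. Slc7a3, a carrier of arginine and lysine, went from -3.01 and -2.93 to 0.57 and 0.54 (3.52, SE 0.135, adjusted p = 0.000286), the largest rise among genes above background on all 4 arrays. Further carriers rose by less: Slc6a9, for glycine, by 1.60, Slc7a5, for leucine and other large amino acids, by 1.29 (other probe 0.30), and Slc7a1, for arginine, by 0.87. Slc38a2, the close relative of Slc38a1, was the member that fell, from 1.41 and 1.37 to 0.42 and 0.45 (-0.96, SE 0.0871, adjusted p = 0.0018).

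Several regulators within this program rose, though not all of them. Atf4 itself stood at 6.65 and 6.74 in TrspFF and at 7.30 and 7.31 in Trsp-Ins1KO (0.61, SE 0.0694, adjusted p = 0.0028). Trib3, a pseudokinase that restrains ATF4 and insulin signalling, stood at 0.97 and 1.07 against 3.28 and 3.16 (2.20, SE 0.0932, adjusted p = 0.000342). Nupr1, a stress-induced chromatin protein, stood at 3.53 and 3.47 against 5.47 and 5.46 (1.96, SE 0.0977, adjusted p = 0.000537). For all of these both Trsp-Ins1KO arrays lay above both TrspFF arrays by far more than the arrays of a group differed. Chac1, which degrades glutathione, rose by 1.78 (adjusted p = 0.000686), Cebpb by 1.53, Sesn2 by 1.43, Atf5 by 1.34 and Eif4ebp1, which holds back cap-dependent translation, by 1.18. Cebpg, a partner of ATF4 on DNA, was not called (-0.29, adjusted p = 0.0733). Nor was Ddit3, which encodes the pro-apoptotic factor CHOP: it stood at 0.59 and 0.57 against 0.57 and 0.33 (-0.13, SE 0.117, adjusted p = 0.386).

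Enzymes of serine and one-carbon metabolism rose together, Psat1 by 1.29, Shmt2 by 0.94, Phgdh by 0.90, Mthfd2 by 0.83, Aldh1l2 by 0.72 and Psph by 0.56, while Asns, asparagine synthetase, rose by 0.39. Both stress hormones of the list rose. Gdf15, which acts on the hindbrain to lower food intake, stood at -4.00 and -4.03 against -1.87 and -2.01 (2.08, SE 0.0836, adjusted p = 0.000317). Fgf21, a hormone best known from liver, was not well above background in TrspFF and was at least 2.44-fold higher in Trsp-Ins1KO (adjusted p = 0.00021). Such a bound sets the mean of the brighter group against the lowest signal that still counted as above background on the dimmer arrays. In the direct test, 29 of the 34 members were higher and 1 lower in Trsp-Ins1KO than in Trsp-RIPKO, where 20.7% and 19.2% of all genes were, with Slc7a3 higher by 2.11. Trsp-RIPKO lies alone on slide 2, so that slide and Cre line cannot be told apart in that test. Without single arrays 27 to 31 members rose and, without Trsp-Ins1KO 1, 2 fell.

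**Figure D3:**
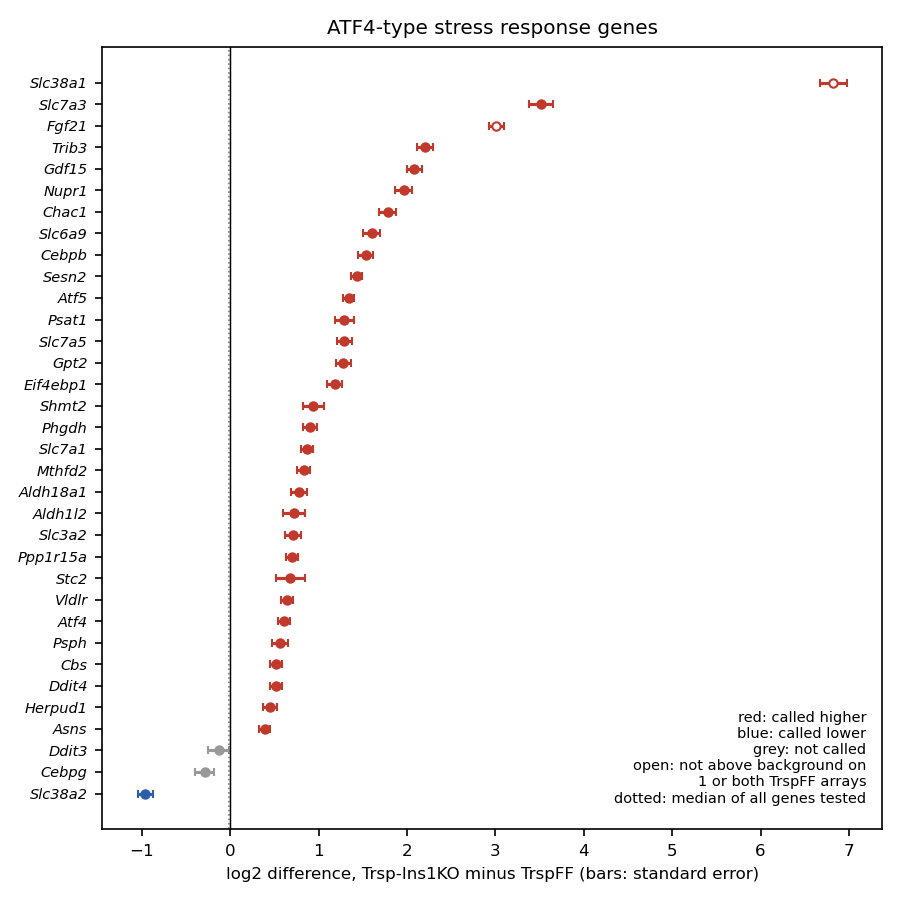
Difference of each of the 34 tested ATF4-list genes, Trsp-Ins1KO minus TrspFF on the log2 scale, with the standard error of the fit as bars. The 31 red points rose and lie right of 0, Ddit3 and Cebpg are grey and Slc38a2 is blue; Slc38a1 and Fgf21 are open because they were not above background on 1 or both TrspFF arrays.

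Other lists of protein stress were mixed, beside 24% rises and 24.3% falls over all genes. Of 34 aminoacyl-tRNA synthetases, 11 rose and 5 fell (median 0.11), with Aars, for alanine, up by 0.76, the mitochondrial Sars2 up by 0.72 and Iars2 up by 0.81 (other probe 0.16, adjusted p = 0.168), and the mitochondrial Rars2 down by a difference of -0.68. Without TrspFF 1, TrspFF 2, Trsp-Ins1KO 1 and Trsp-Ins1KO 2, 4, 6, 7 and 5 of them rose, with median scaling 6, and Iars2 was lost without TrspFF 1 (adjusted p = 0.0664). The falls numbered 1, 3 and 3 without TrspFF 1, TrspFF 2 and Trsp-Ins1KO 2. Of 34 genes of the unfolded protein response, 11 rose and 6 fell (median 0.01), while with the normexp correction 10 rose and 16 fell (median -0.13). Derl3, of the degradation pathway of the endoplasmic reticulum, went from 1.89 and 1.99 to 3.33 and 3.26 (1.35, adjusted p = 0.000756), and the chaperone Hyou1 rose by 1.10 and the ubiquitin ligase Syvn1 by 0.87. Ero1b, the oxidase that serves proinsulin folding, fell by 0.86 (adjusted p = 0.00244). The chaperone Hspa5, the most used readout of this response, stood at 7.22 and 7.25 against 7.34 and 7.24 (0.05, adjusted p = 0.553). Without TrspFF 1 the counts were 6 and 1, without TrspFF 2 they were 7 and 2, and without Trsp-Ins1KO 2 there were 2 falls. Heat shock chaperones fell more often than they rose, 11 against 3 of 21 (median -0.28), Chordc1 by 0.86, Dnaja1 by 0.66 (other probe -0.24) and Fkbp4 by 0.92, and the small chaperone Hspb8 rose by 1.06. The falls numbered 5, 6 and 7 without TrspFF 1, TrspFF 2 and Trsp-Ins1KO 2, and Fkbp4 was lost without TrspFF 1 (adjusted p = 0.0589).

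Immediate early genes were higher: 15 of 22 rose and 1, Ier5, fell, with a median of 0.88, and the other probe for Ier5 went the opposite way (1.30). Fos went from -1.73 and -1.74 to -0.15 and -0.30 (1.51, SE 0.0787, adjusted p = 0.000591) and Egr1 from -1.14 and -1.25 to 0.05 and 0.25 (1.35, SE 0.0936, adjusted p = 0.00108). Nr4a1, an orphan nuclear receptor of this class, rose by 1.84 and the matrix protein gene Ccn1 by 1.28. The groups did not overlap for these 4 genes, which held for 77.9% of all genes. Without Trsp-Ins1KO 1 there were 2 falls, and without either TrspFF array there were 0. Among p53 targets and apoptosis genes, 13 of 33 rose and 6 fell (median 0.20). Cdkn1a, the cyclin-dependent kinase inhibitor p21, stood at 0.10 and 0.10 in TrspFF and at 1.45 and 1.50 in Trsp-Ins1KO (1.37, SE 0.0644, adjusted p = 0.000459). Plk2 rose by 1.45, the pro-apoptotic Bbc3 by 1.14 and Pmaip1 by 1.09, whereas Mdm2 (0.04, adjusted p = 0.685) was not called. Trp53 rose by 1.24 (adjusted p = 0.0214), a call lost without TrspFF 1 (0.0787), TrspFF 2 (0.0931) or Trsp-Ins1KO 2 (0.0679). The counts for this list were 6 and 1 without TrspFF 1 and 7 and 3 without TrspFF 2, and 2 fell without Trsp-Ins1KO 2. NF-kB and cytokine genes had 7 rises and 2 falls of 15, with Cx3cl1 up by 0.70, Nfkb2 by 0.62, Nos2 by 0.69 and Nfkb1 by 0.78 (other probe 0.24, adjusted p = 0.151). The calls on Nos2 and Nfkb1 were lost on leaving out each of the 4 arrays in turn (adjusted p up to 0.144 and 0.147). Falls numbered 0 without either TrspFF array. Without TrspFF 1, TrspFF 2, Trsp-Ins1KO 1 and Trsp-Ins1KO 2, 1, 2, 3 and 4 rose, and Nfkb2 was lost without TrspFF 1 (adjusted p = 0.0597).

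Transcription factors of beta-cell identity rose: 11 of 19 tested rose and 0 fell, with a median of 0.36. Pdx1, the master factor of pancreas and beta cells, stood at 0.95 and 0.97 in TrspFF and at 1.56 and 1.65 in Trsp-Ins1KO (0.65, SE 0.0805, adjusted p = 0.00347). Mafa, which marks mature beta cells, stood at 2.30 and 2.18 against 2.89 and 2.95 (0.68, SE 0.0818, adjusted p = 0.00313). The groups did not overlap for either gene, which held for 77.9% of all genes. Tcf7l2, an effector of Wnt signalling, rose by 1.17 (other probe 0.45) and Nkx6-1 by 0.39 (adjusted p = 0.0127), while the 2 probes for Nkx2-2 went opposite ways (0.64 and -0.70) and Neurod1 (0.11, adjusted p = 0.313) and Isl1 (0.12, adjusted p = 0.201) were not called. Nkx6-1 was lost without TrspFF 1 (adjusted p = 0.0576), without TrspFF 2 (0.0844) and with median scaling (0.0531), where the list had 5, 6 and 7 rises, and with the normexp correction Nkx6-1 differed by 0.07 (adjusted p = 0.479).

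Genes of beta-cell function were split evenly, with 12 rises and 12 falls among 39 and a median of 0.02. Over all genes, 24% rose and 24.3% fell. With the normexp correction 12 of the 39 rose and 18 fell. Ins1 stood at 10.24 and 10.48 in TrspFF and at 11.27 and 11.41 in Trsp-Ins1KO (0.99, SE 0.114, adjusted p = 0.00292), and Ins2 at 10.12 and 10.25 against 10.98 and 11.11 (0.86, SE 0.0868, adjusted p = 0.00219). Quantile normalization, which forces the brightest probes of all arrays to the same values, left 0.18 (adjusted p = 0.0563) for Ins1 and 0.04 (adjusted p = 0.593) for Ins2. Iapp, the amyloid peptide secreted with insulin, rose by 0.83 (adjusted p = 0.00275), whereas the peptide gene Npy and the granule protein gene Scg5 fell by 0.87 and 0.84. The vesicle fusion protein gene Snap25 rose by 0.95, and Abcc8 and Kcnj11, the subunits of the ATP-sensitive potassium channel, rose by 0.51 and 0.49 (other probe of Kcnj11 0.03).

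Some genes that sense glucose and incretins were among the falls, while Gipr, the receptor of the incretin GIP, rose by 0.25 (adjusted p = 0.03). Slc2a2, the glucose transporter GLUT2, stood at 4.57 and 4.49 against 3.87 and 3.76 (-0.71, SE 0.0754, adjusted p = 0.00247). Glp1r, the receptor of the incretin GLP-1, stood at -0.32 and -0.34 against -1.90 and -1.74 (-1.49, SE 0.134, adjusted p = 0.00178), and its other probe gave -0.69. Trpm5, a calcium-activated cation channel, stood at 3.24 and 3.04 against 1.54 and 1.35 (-1.70, SE 0.109, adjusted p = 0.00094). For Slc2a2, Glp1r and Trpm5 both knockout arrays lay below both floxed arrays, though the groups did not overlap for 77.9% of all genes. The granule protein gene Sytl4 fell by 0.98 and the zinc transporter gene Slc30a8 by 0.75, whereas the maturity marker Ucn3 (-0.16, adjusted p = 0.298) was not called. The list had 5 rises without TrspFF 1 and 6 without TrspFF 2.

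**Figure D4:**
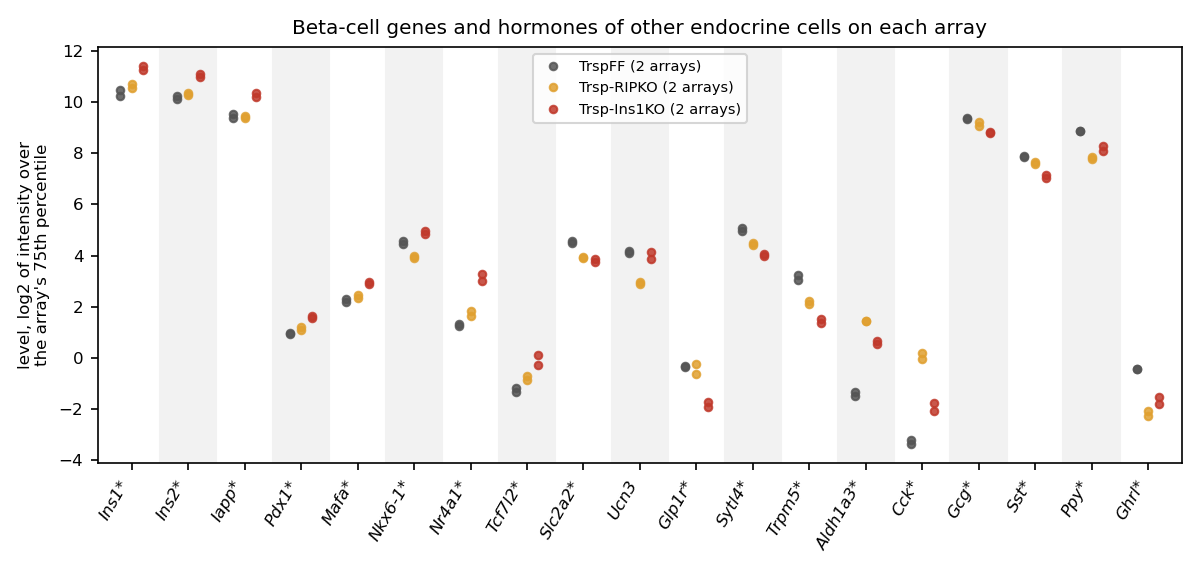
Levels on every array of genes of beta-cell function and identity and of other islet hormones (vertical axis, log2 of intensity over the array's 75th percentile), with grey, yellow and red points for TrspFF, Trsp-RIPKO and Trsp-Ins1KO, 2 arrays each; a star marks an adjusted p under 0.05 for Trsp-Ins1KO against TrspFF. Pdx1 and Mafa lie higher and Slc2a2, Glp1r and Trpm5 lower in Trsp-Ins1KO than in TrspFF; levels of different probes are not comparable.

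Genes that mature beta cells keep low, or that mark loss of identity, had 9 rises and 4 falls among 18 (median 0.33). Aldh1a3, the retinaldehyde dehydrogenase used as a marker of failing beta cells, stood at -1.49 and -1.34 in TrspFF and at 0.66 and 0.54 in Trsp-Ins1KO (2.02, SE 0.0843, adjusted p = 0.000341), and at 1.45 and 1.44 in Trsp-RIPKO. Serpina7, the thyroxine-binding globulin, rose by 1.79, Cck, a gut peptide, by 1.37 and Slc16a1, the lactate carrier that beta cells normally repress, by 0.69. In the direct test, Aldh1a3 and Cck were lower in Trsp-Ins1KO than in Trsp-RIPKO, with differences of -0.84 and -2.01 (adjusted p = 0.0025 and 0.00113), and 8 of the 18 genes were lower and 3 higher.

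Several hormones of the other endocrine cells, which do not express Ins1, were lower. Of 16 genes of these cells 7 fell and 1 rose (median -0.17). Gcg, glucagon, of alpha cells, stood at 9.32 and 9.38 against 8.83 and 8.77 (-0.56, SE 0.0759, adjusted p = 0.00434). Sst, somatostatin, of delta cells, stood at 7.89 and 7.86 against 7.15 and 7.04 (-0.78, SE 0.0759, adjusted p = 0.00205). Ppy, pancreatic polypeptide, fell by 0.68 and Ghrl, ghrelin, by 1.24. The groups did not overlap for these 4 hormones, which held for 77.9% of all genes, but did for Pyy, peptide YY (-0.03, adjusted p = 0.789). Levels are relative to the bulk of transcripts on the same array and are not shares of a total. Whether the falls of these hormones are linked to the rise of the insulin transcripts was not tested. The 1 rise, Smarca1, was lost without any of the 4 arrays and with median scaling.

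Nuclear genes of the respiratory chain and ATP synthase fell in small steps: 39 of 62 fell and 2 rose, with a median of -0.28. Ndufa6, of complex I, stood at 3.94 and 3.88 against 3.24 and 3.17 (-0.70, SE 0.0725, adjusted p = 0.0023), and Cox6c, of complex IV, at 5.56 and 5.55 against 4.90 and 4.81 (-0.70, SE 0.0686, adjusted p = 0.00209). Ndufs8, of complex I, fell by 0.94, and Sdhc, of complex II, rose by 0.66 (other probe 0.33). The number of falls was 13 without either TrspFF array and 21 without Trsp-Ins1KO 2. Set against Trsp-RIPKO, 9 of the 62 were lower and 8 higher.

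The remaining metabolic lists moved both ways, as did all genes, of which 24% rose and 24.3% fell. Of 27 genes of hypoxia, glycolysis and mitophagy, 9 rose and 8 fell, with Pfkfb3, which drives glycolysis, up by 0.97 and Hif1a, the oxygen-sensing factor, down by a difference of -0.52. Of 31 genes of sterol and fatty acid synthesis, 5 rose and 8 fell, and the falls included Idi1 and Hmgcs1 of the mevalonate pathway (-0.96 and -0.74). Of 31 cell cycle genes, 9 rose and 5 fell: the replication licensing gene Mcm3 rose by 1.22 and Hmmr, of the mitotic spindle, fell by 0.92, while Mki67, the usual proliferation marker, was not called (0.08). With the normexp correction 19 cell cycle genes rose and 5 fell, and 11 sterol genes rose and 12 fell. Without TrspFF 1 the rises and falls numbered 5 and 2 for hypoxia and 5 and 2 for the cell cycle, and sterol genes had 0 rises. Without TrspFF 2 they numbered 5 and 2 for hypoxia, the cell cycle had 2 falls and sterol genes had 2 rises. Without Trsp-Ins1KO 1 the cell cycle had 8 falls, and without Trsp-Ins1KO 2 hypoxia had 4 falls and sterol genes had 3 rises.

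Genes that respond to growth hormone and prolactin had 6 rises and 5 falls among 18 (median 0.09). Over all genes, 24% rose and 24.3% fell. The growth hormone and prolactin pathway is known to be disturbed in some Cre lines whose construct holds the human growth hormone gene. Cish, a direct STAT5 target, stood at 1.27 on both TrspFF arrays, at 0.50 and 0.56 in Trsp-Ins1KO and at -0.34 and -0.38 with RIP-Cre, a difference of -0.73 (SE 0.0655, adjusted p = 0.00175) for Trsp-Ins1KO against TrspFF. Both knockout lines lay below TrspFF. Prlr, the prolactin receptor, fell by 0.68 (other probe -0.06), Socs2 was not called (0.00) and Foxm1 rose by 0.72, a call lost without TrspFF 1 (adjusted p = 0.0634), TrspFF 2 (0.0763) or Trsp-Ins1KO 1 (0.0533). The list had 2 rises without TrspFF 1 and 3 without TrspFF 2. Of 17 genes of the EGF family and the IGF system 9 rose and 2 fell, and 5 rose without TrspFF 1. Areg, an EGF receptor ligand, stood at -4.13 and -4.73 in TrspFF, where 1 of the 2 arrays had it above background, and at -0.35 and -0.33 in Trsp-Ins1KO (4.09, SE 0.201, adjusted p = 0.000519).

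Interferon-stimulated and MHC class I genes fell more often than they rose, 14 against 4 of 35 (median -0.23), though with the normexp background correction 16 rose and 7 fell, and of the 29 above background on all 4 arrays 9 fell and 4 rose. Without TrspFF 1 and TrspFF 2 the falls numbered 7 and 9. The members did not move as a block: Gbp6, Cmpk2 and Rsad2 rose by 1.84, 1.60 and 1.38, while Xaf1 and Ifit1 fell by 1.21 and 1.02. Oas2 was at least 1.41-fold lower in Trsp-Ins1KO (adjusted p = 0.00514), where it was not well above background, and normexp correction turned its fitted difference to 0.26.

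Markers of other cells moved between the groups, and their part in the results above was not tested. Acinar genes were higher, 23 of 27 with 2 lower and a median of 1.31, and their summed level, the log2 of the list's added linear values, was 4.63 and 4.68 in TrspFF and 5.52 and 5.44 in Trsp-Ins1KO. Reg1, a regenerating protein of acinar cells, stood at -3.23 and -3.03 against -0.48 and -0.58 (2.60, SE 0.0916, adjusted p = 0.000256), and the trypsinogen gene Try4 rose by 2.38. Set against Trsp-RIPKO, 2 of the 27 were higher and 10 lower. The 2 falls were lost without TrspFF 1, TrspFF 2 or Trsp-Ins1KO 2, and 1 remained without Trsp-Ins1KO 1.

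Hepatocyte genes were higher in 15 of 20 cases with 0 lower (median 2.15, or 1.75 with the 10 members that have only a bound taken at it). Those 10 passed the filter through Trsp-Ins1KO alone and so had to differ, and of the 10 above background on all 4 arrays 5 rose. Alb, albumin, stood at -4.95 and -4.24 in TrspFF and at -0.21 and -0.23 in Trsp-Ins1KO, at least 17.2-fold higher (adjusted p = 0.00146). Ahsg, fetuin, and Hp, haptoglobin, were at least 18.3-fold and 7.5-fold higher (adjusted p = 0.00459 and 0.000265). Mup19, a major urinary protein made by liver, was at least 36.9-fold higher (adjusted p = 0.000241). Hp and Mup19 were named for the size of their bounds, and Mup19 is not in the list. None of these 4 was well above background in TrspFF, and both Trsp-Ins1KO arrays carried them. The summed level of the list, which the abundant islet transcript Ttr (-0.08, adjusted p = 0.33) dominates, was 6.48 and 6.51 against 6.59 and 6.58. Set against Trsp-RIPKO, 17 of the 20 were higher, where 20.7% of all genes were. The filter did not use Trsp-RIPKO, so members that entered through Trsp-Ins1KO alone were favoured in this count too.

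Endothelial genes were higher in 16 of 23 cases and lower in 1, with a median of 0.67 and a summed level of 6.93 in each TrspFF array against 7.62 and 7.58. Plvap, of fenestrated capillaries, stood at 2.24 and 2.21 against 4.07 and 3.96 (1.79, SE 0.0765, adjusted p = 0.000342) and Cdh5, the cadherin of endothelial junctions, rose by 1.70. Pecam1, a defining endothelial gene, was not called (0.07, adjusted p = 0.549), and Vwf, above background on 1 of the 2 Trsp-Ins1KO arrays, fell from -0.78 and -1.01 to -3.24 and -4.72 (-3.08, adjusted p = 0.00552). Macrophage and dendritic cell genes had 10 rises and 2 falls of 19 (median 0.34), with a summed level of 7.43 and 7.42 against 8.23 and 8.31. Itgam dominates that sum, at 7.11 and 7.09 against 7.97 and 8.08 (0.92, adjusted p = 0.00158). The other probes for Itgam gave -0.04 and 0.33, and its call was lost with the mean over probes (0.41, adjusted p = 0.0913). H2-Aa, an MHC class II chain, had the largest change: above background on 1 of the 2 Trsp-Ins1KO arrays, it fell from a mean of -0.93 to -2.90 and -3.33 (-2.18, adjusted p = 0.00134). Itgax and Cd74 rose by 0.95 and 0.89 and Adgre1, a defining macrophage gene, was not called (0.05). The falls in that list numbered 1 without TrspFF 1, TrspFF 2 or Trsp-Ins1KO 2.

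Genes of fibroblasts and of nerves included large falls. Of 21 fibroblast and stellate cell genes 12 fell and 5 rose, with a median of -0.49, or -0.41 with members at their bounds. Members that passed the filter through TrspFF alone had to differ, and of the 15 above background on all 4 arrays 7 fell and 5 rose. With the normexp correction 8 fell and 10 rose and the median was 0.17. Dcn, decorin, stood at 2.52 and 2.62 in TrspFF and at -0.62 and -0.30 in Trsp-Ins1KO (-3.03, SE 0.121, adjusted p = 0.000317), and Lum, lumican, was at least 7.64-fold lower (adjusted p = 0.000186). Col1a1 and Col3a1 fell by 0.96 and 1.09, while the basement membrane gene Col4a2 rose by 1.36, and the summed level was 6.19 and 6.26 against 6.50 and 6.38. Of 14 Schwann cell and neuron genes 8 fell and 0 rose (median -0.93, or -0.64 with members at their bounds), and 4 rose with the normexp correction. Of the 10 above background on all 4 arrays, 5 fell. Stmn2, a growth-cone protein, stood at 0.06 and -0.04 against -2.08 and -2.30 (-2.20, SE 0.1, adjusted p = 0.000421), and Prph, the peripheral neuron filament, was at least 5.21-fold lower (adjusted p = 0.00205). The summed level of that list was 4.54 in each TrspFF array against 4.41 and 4.26.

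Smaller marker lists gave fewer calls. Of duct genes 5 of 15 rose and 2 fell, of intestinal genes 5 of 12 rose, of T and B cell genes 3 of 7 rose and of red cell genes 2 of 6 fell, and of the 3 adipocyte genes Lpl and Fabp4 fell by 1.51 and 1.20 and Pnpla2 rose by 0.55, a call lost without TrspFF 1 (adjusted p = 0.059). Fabp1, the fatty acid binding protein of liver and gut, was at least 11.6-fold higher in Trsp-Ins1KO than in TrspFF (adjusted p = 0.000557), and stood at -0.94 and -0.73 beside -0.61 and -0.70 in Trsp-RIPKO. The rises numbered 2, 2 and 1 for duct, intestine and T and B cells without TrspFF 1, and 2, 3 and 1 without TrspFF 2. The red cell falls numbered 1 without either TrspFF array, the duct falls 1 without TrspFF 2 or Trsp-Ins1KO 2, and without Trsp-Ins1KO 1 intestine had 3 rises and 2 falls. Of 5 sex-linked genes 2 fell, of which Eif2s3y was lost without TrspFF 1 (adjusted p = 0.081).

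**Figure D5:**
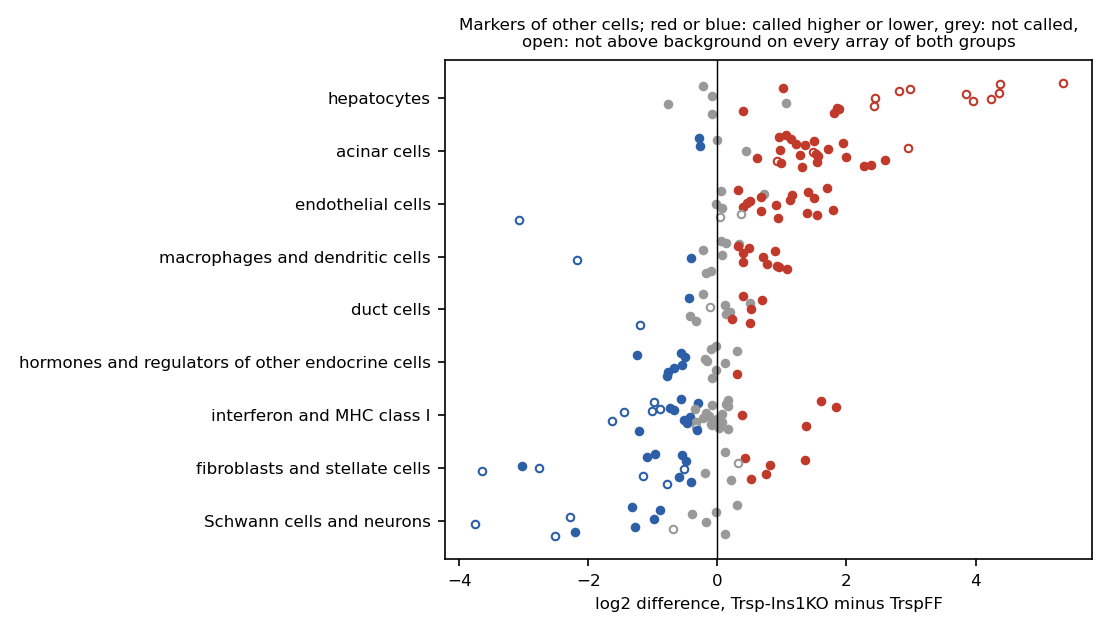
Difference of each tested marker gene, Trsp-Ins1KO minus TrspFF on the log2 scale, 1 point per gene and 1 line per list; red and blue points were called higher and lower, grey ones were not called, and open ones were not above background on every array of both groups, so that their fitted values are no bounds. Hepatocyte, acinar and endothelial genes lie mostly right of 0, and fibroblast and nerve genes mostly left of it.

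Large changes also lay outside these lists. Of genes above background on all 4 arrays, the 12 largest rises included Vgf, a neuroendocrine peptide precursor, from 1.20 and 1.22 to 3.70 and 3.57 (2.43, SE 0.0741, adjusted p = 0.000235). Pttg1, securin, rose by 2.47, Rnf150, a ring-finger protein, by 2.93, Fut1, a fucosyltransferase, by 2.56, Apoc1, an apolipoprotein, by 2.43 and Dusp23, a phosphatase, by 2.29. The probes for the noncoding RNAs Rprl2 and Rnu1b6 rose by 2.40 and 2.27. The 12 largest falls included Aqp1, a water channel, from -0.09 and 0.05 to -2.67 and -2.87 (-2.75, SE 0.0974, adjusted p = 0.000256). Ifi27l2a, an interferon-induced gene, fell by 2.85, Chl1, a neural adhesion protein, by 2.19, Cys1, of the cilium, by 1.93, Caps2 by 1.91, Tubb2b, a neuronal tubulin, by 1.86 (other probe -0.86) and Thnsl2 by 1.81. Among genes not above background in Trsp-Ins1KO, Abhd17a, a depalmitoylating enzyme, was at least 8.29-fold lower, Inmt, an N-methyltransferase, 5.31-fold, Grp, gastrin-releasing peptide, 4.61-fold, Cnr1, a cannabinoid receptor, 4.54-fold and Tac1, the substance P precursor, 4.34-fold.

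Both knockout lines were also set against each other, with the limit that Trsp-RIPKO lies alone on its slide. The scanner software's quality flag was ExtractionEvaluate for both Trsp-RIPKO arrays and ExtractionInRange for all TrspFF and Trsp-Ins1KO arrays. Of 18258 genes, 3773 were higher and 3502 lower in Trsp-Ins1KO, together 39.8%. The genes outside the selenoproteins included Grp, at -1.23 and -1.34 in TrspFF and near that in Trsp-RIPKO (-1.47 and -1.33), against -5.88 and -5.69 in Trsp-Ins1KO, where it was not well above background. Caps2 stood at -0.65 and -0.71 in TrspFF, close to -0.70 and -0.62 in Trsp-RIPKO, and at -2.56 and -2.61 in Trsp-Ins1KO (Trsp-Ins1KO minus Trsp-RIPKO -1.92, adjusted p = 0.000294). For these genes the arrays of TrspFF and Trsp-RIPKO overlapped and those of Trsp-Ins1KO stood apart. For Fabp1 and Reg1 it was TrspFF that stood apart: Reg1 was at -0.74 and -0.72 in Trsp-RIPKO, 0.20 below Trsp-Ins1KO (adjusted p = 0.141). Gstm1 lay between, at 1.51 and 1.48 in Trsp-RIPKO (Trsp-Ins1KO minus Trsp-RIPKO 1.43, adjusted p = 0.000461).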

How the data were processed

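Islet RNA was hybridised to 1-colour Agilent arrays with Cy3 labelling, per the labels' protocols. The deposited scanner files hold intensity values from Feature Extraction 10.7.3.1 on design 026655, per the file headers, and a table of log2 values deposited by the authors, whose differences between arrays follow the scanner files with slope 1.0 and whose column medians run from -0.079 to 0.140; no source used here states what they are centred on. The depth of an array is not a count; their number, 2 per group, limits the precision. Here log2 processed intensity minus each array's 75th percentile was used, with control spots and outlier spots left out (39426 probes). Probes had to be well above background, by the deposited flags, on both arrays of TrspFF or both of Trsp-Ins1KO, and the brightest of these stood for its gene. Of all probes, 66.1% were named through the RefSeq table. Limma 3.58.1 in R 4.3.3 was fitted on all 6 arrays (total df 5.3), with Benjamini-Hochberg adjustment over 18258 genes. Other steps ran in Python 3.11.15, pandas 2.3.3, numpy 2.4.6 and matplotlib 3.10.9. Tested on simulated data with 50 changed genes per size among 18258 genes, 28%, 74%, 96% and 98% were called at log2 changes of 0.5, 1, 2 and 3. There, 5 unchanged genes were also called. Far fewer genes changed in the simulation than the 48.3% called here, so these percentages do not measure the sensitivity in the real data. Named genes are the 12 largest rises and falls above background on all 4 arrays, the 8 highest bounds each way, all selenoproteins, the 4 largest called changes of each list and a fixed set of islet and stress genes; every other named gene was chosen after its values were seen, and a few genes that the rule would name are not reported here. The gene lists and their members were chosen with earlier results of these data known. Alternatives were another scaling, background correction, filter, probe rule, variance model, replicate block, the authors' table and each array left out; without 1 array of a group, the lone array is assumed to vary like the other groups. Same-numbered samples of both groups correlated at r = 0.146 over 16150 genes, and nothing in the labels pairs them. Promoters are RefSeq's on GRCm38.p6.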

Additional observations from a re-analysis of the deposited data

Results flagged for a closer look

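For 14 of the genes named by rule, the fitted differences of both knockout lines from TrspFF were called with opposite signs. Limma's test also called the difference between the lines. Both changes share the TrspFF arrays, and Trsp-RIPKO cannot be told apart from its slide. Dcn differed by -3.51 (-3.03 in Trsp-Ins1KO and 0.48 in Trsp-RIPKO, adjusted p = 0.00024) and Lum, also of fibroblasts, by -4.03 (-3.65 and 0.39, adjusted p = 0.000153). Stmn2 and Tubb2b, of neurons, differed by -2.59 (-2.20 and 0.39, adjusted p = 0.000317) and -2.38 (-1.86 and 0.52, adjusted p = 0.000381). Aqp1, the water channel, differed by -3.27 (-2.75 and 0.52, adjusted p = 0.00018), and Fmo1, a flavin monooxygenase, by -2.68 (-1.83 and 0.84, adjusted p = 0.000154). Fos, the immediate early gene, differed by 2.05 (1.51 and -0.54, adjusted p = 0.000317) and Nkx6-1 by 0.96 (0.39 and -0.57, adjusted p = 0.00168). Mup19 differed by 7.12 (5.58 and -1.54, adjusted p = 0.000153), Xist by -6.89 (-5.26 and 1.63, adjusted p = 0.000153), Fbln1 by -3.37 (-2.76 and 0.62, adjusted p = 0.000384), Epgn by -2.91 (-1.86 and 1.05, adjusted p = 0.00169) and Tff2 by -1.63 (-1.20 and 0.44, adjusted p = 0.000804). For Lum and these 5 genes 1 or more groups were not well above background, so the fitted values are neither measured sizes nor bounds. Mup19 was well above background on 0 arrays of TrspFF and 0 of Trsp-RIPKO, so its -1.54 shows no fall in Trsp-RIPKO. Normexp correction turned the difference from TrspFF for Fbln1, Epgn and Tff2. The selenoprotein gene Dio1 differed by 0.61 (0.26 and -0.35, adjusted p = 0.00453), and its other probes gave 0.85 and 0.86 for Trsp-Ins1KO against TrspFF.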

How the results depend on the processing

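Beside 4377 rises and 4437 falls (49.7% rises), the replicate block gave 4312 and 4346 and changed the call of 4 named genes (Gpx3, Txnrd3, Dio1 and Selenom); the samples share only a number. Normexp correction gave 8443 rises (63.9%), no filter on dim probes 10242 (73.5%), median scaling 40.9% rises, and spike-in scaling 137 rises and 17484 falls (0.777%). Without single arrays the rises ranged from 2122 to 3993 and the falls from 2031 to 4319. Under the names of the authors' table, 4440 rose and 4369 fell, with the groups exchanged. Of the 17 alternatives, 15 were followed gene by gene, which leaves out spike-in scaling and the authors' table under its own names. Of 178 named genes called, 142 kept the call in each of those 15 that measured them, and 36 lost it in 1 or more. Normexp correction turned Cyp51 to 0.07, Epgn to 0.32, Fbln1 to 0.17, Ifit3 to 0.40, Msrb1 to -0.00, Nqo1 to 0.21, Oas2 to 0.26, Selenon to -0.05, Sod1 to -0.23, Tff2 to 0.31 and Txnrd3 to 0.38. Sod1 was also -0.06 with median scaling, -0.02 without Trsp-Ins1KO 1 and -0.06 without TrspFF 2, and Selenoo ranged from -0.10 (without Trsp-Ins1KO 1) to 0.04 (without Trsp-Ins1KO 2), with 0.02 without TrspFF 1. The cause was not tested. Dim probes bound 1143 genes in 1 group.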

Other observations

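Families that were looked at after values had been seen also leaned to the lower side. Of 76 cytosolic ribosomal protein genes 50 fell (65.8%) and 1 rose, with a median of -0.30 and a range from -0.92 to 0.57, where 24.3% of all genes fell. Mitochondrial ribosomal protein genes had 38 falls (50%) and 3 rises among 76 (median -0.27, from -1.03 to 0.49). Among 305 zinc finger genes named Zfp, 113 fell (37%) and 50 rose, with a median of -0.16.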
